A study of Mus musculus with 16 samples.

Results

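Livers lacking the bile acid receptor FXR were compared directly with livers lacking SHP, the repressor that FXR induces, in male C57BL/6 mice killed at 3 weeks of age. The comparison rests on 2 arrays of FXR-/- liver (Nr1h4 deleted) and 2 arrays of SHP-/- liver (Nr0b2 deleted), out of 16 arrays in the series. Its members are the probes with a detection p-value under 0.01 on both arrays of either genotype, which were 10032 of 24613 probes on the array and stood for 7484 of its 15967 genes. Both knockouts were made congenic with C57BL/6 by backcrossing and bred in the laboratory, so no bought animal enters the contrast. All mice were male and ate normal chow. The other arrays, also 2 per group, hold FXR-/- and SHP-/- livers at 5 weeks and, at both ages, the double knockout FXR-/-SHP-/-, bred by crossing the single knockouts, and wild-type mice bought from a supplier. The deletions affect the whole animal, and the labels give no number of animals behind an array, so p-values measure the spread between these arrays, which may be technical. Liver is a mixture of cells, and fewer cells of a type cannot be told apart from less RNA per cell.

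FXR is a nuclear receptor that bile acids activate. In hepatocytes it raises the bile salt export pump and other transporters, and it induces SHP, an atypical nuclear receptor with no DNA-binding domain. SHP represses other transcription factors, among them those that drive Cyp7a1 and Cyp8b1, the enzymes that set the amount and the composition of newly made bile acids. FXR also acts through an intestinal hormone, so the loss of FXR and the loss of SHP remove overlapping but different parts of the same feedback loop. The direct contrast shows which transcripts stand at different levels when the sensor or the repressor is missing.

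The 4 arrays were of similar quality. On the FXR-/- arrays 9943 and 9988 probes were detected, against 9989 and 9903 on the SHP-/- arrays. Duplicates differed by 1.27 bead standard errors in FXR-/- and 1.28 in SHP-/- (SD over probes), while an FXR-/- and an SHP-/- array differed by 4.37 to 4.41. Hepatocyte transcripts were present, with 10 of the 12 listed hepatocyte markers on the array detected on both arrays of each genotype. The Y-linked genes did not all follow the male label. Eif2s3y, a translation initiation factor subunit encoded on the Y chromosome, read 4.30 and 4.17 on the FXR-/- arrays, against 7.36 and 7.23 on the SHP-/- arrays, so it was not detected in FXR-/- and was at least 5.34-fold lower there (adjusted p = 6.68e-10). It was also undetected on the FXR-/- arrays at 5 weeks, and the dimmer Y-linked gene Kdm5d was detected on both of those but on neither FXR-/- array at 3 weeks. The probes of Uty and Usp9y were below detection on all 4 arrays. The part of sex in the results was not tested.

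The deleted genes served to check the labels. The log2 intensity of Nr1h4, which encodes FXR, was 4.55 and 4.30 on the FXR-/- arrays, against 11.14 and 11.16 on the SHP-/- arrays. It was not detected in FXR-/- and was at least 77.5-fold lower there (adjusted p = 2.1e-18), with wide separation of the genotypes. The probe of Nr0b2, which encodes SHP, read 4.19 and 4.22 on the FXR-/- arrays and 4.27 and 4.22 on the SHP-/- arrays. These values are not above background on any of the 4 arrays, so Nr0b2 is no member and the SHP deletion could not be checked on its own transcript.

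The knockouts differed in many measured genes. The 8878 member probes with a single gene symbol stood for 7484 genes, each represented by its brightest probe. At an adjusted p under 0.05 in the limma fit, 2165 genes differed (28.9%), of which 1107 were higher in FXR-/- (14.8%) and 1058 lower (14.1%). Scaling arrays to a common median in place of quantile normalization gave 1205 higher and 724 lower genes. Of the called genes 348 differed at least 2-fold (4.65% of all), 204 higher and 144 lower, and 73 at least 4-fold. The median difference over all genes was -0.02 on the log2 scale, and the arrays of the genotypes did not overlap for 5008 genes (66.9%). Among the 6656 genes detected on all 4 arrays, 1866 were called, 913 higher and 953 lower. At the level of probes, 2851 of 10032 were called (28.4%). Leaving out 1 of the 4 arrays left 1533 to 1576 genes called.

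**Figure D1:**
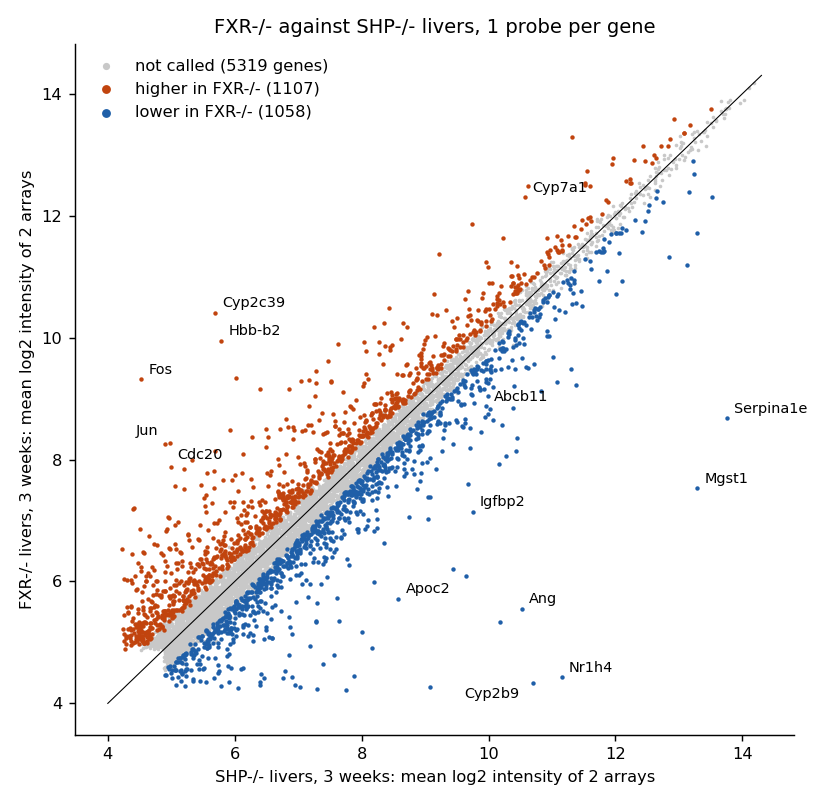
Mean log2 intensity of 7484 genes in FXR-/- livers (vertical axis, 2 arrays) against SHP-/- livers (horizontal axis, 2 arrays) at 3 weeks, 1 point per gene, with the line of equality. Orange points are the 1107 genes higher in FXR-/-, blue points the 1058 lower genes and grey points the 5319 genes that did not pass the test. Nr1h4 and Cyp2b9 lie farthest below the line, and Fos and Cyp2c39 farthest above it.

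Drug-metabolizing, detoxifying and secreted liver proteins led the genes that were lower in FXR-/-. Cyp2b9, a cytochrome P450 with higher expression in female mouse liver, read 4.27 and 4.38 on the FXR-/- arrays, against 10.66 and 10.74 on the SHP-/- arrays. It was at background in FXR-/- and at least 56.7-fold lower there (adjusted p = 2.19e-18). Its neighbour and relative Cyp2b13 read 4.27 and 4.29 on the FXR-/- arrays, against 9.15 and 9.0 on the SHP-/- arrays, at least 18.4-fold lower. No coding gene lies between the pair in the gene order of the mouse assembly GRCm38.p6, and probes of such near-identical family members may bind each other's transcripts. Mgst1, a microsomal glutathione transferase, read 7.33 and 7.73 on the FXR-/- arrays, against 13.33 and 13.25 on the SHP-/- arrays, which makes it 54.0-fold lower (-5.75 ± 0.12, SE, n = 2 per group, as for all values after ±). Unlike Cyp2b9 it was detected on all 4 arrays. Here and below, a signed value given for a gene without a level is its log2 difference, FXR-/- minus SHP-/-. Serpina1e, one of the mouse alpha-1-antitrypsin genes, read 8.71 and 8.65 on the FXR-/- arrays, against 13.87 and 13.63 on the SHP-/- arrays (-5.07 ± 0.09). Ang, a secreted ribonuclease also listed among reported FXR targets, read 5.45 and 5.66 on the FXR-/- arrays, against 10.46 and 10.60 on the SHP-/- arrays (-4.97 ± 0.12). Lipa, the lysosomal acid lipase that splits cholesteryl esters and triglycerides, read 5.24 and 5.42 on the FXR-/- arrays, against 10.13 and 10.24 on the SHP-/- arrays (-4.85 ± 0.13). The FXR-/- and SHP-/- arrays lay apart in each of these, as the choice of genes required. In the double knockout at 3 weeks, Ang stood near the FXR-/- level at a mean of 5.63, while Serpina1e at 13.69, Lipa at 9.77 and Mgst1 at 12.66 stood near SHP-/-.

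The next falls in size were genes of mixed function. Erdr1, a secreted factor of the X and Y pairing region, was -3.55 (6.24 and 5.95 in FXR-/- and 9.58 and 9.70 in SHP-/-). Smoc2, a matrix-associated calcium-binding protein, was -3.25 (6.12 and 6.27 in FXR-/- and 9.47 and 9.42 in SHP-/-). Fcer1g, the common gamma chain of Fc receptors, was below detection on both FXR-/- arrays and at least 7.36-fold lower. The brightest probe of Apoa2, the apolipoprotein gene next to it in the gene order, lay at the top of the normalized scale (14.18) on all 4 arrays, so it could not show a difference. The other Apoa2 probe averaged 11.21 in FXR-/- and 13.86 in SHP-/- (log2 difference -2.65, adjusted p = 6.72e-13). Supt16, a subunit of the histone chaperone FACT, was at least 8.04-fold lower by its brightest probe, and Fgfr1op2 was -3.27. A second probe of each did not pass the test, at 0.28 for Supt16 (adjusted p = 0.179) and -0.19 for Fgfr1op2 (adjusted p = 0.277), so each fall was seen on 1 of 2 probes.

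Growth-signal transcription factors, Cyp2c enzymes and mitotic genes led the rises. Fos, a subunit of the AP-1 transcription factor, read 9.28 and 9.36 on the FXR-/- arrays, against 4.55 and 4.50 on the SHP-/- arrays. It was undetected in SHP-/- and at least 21.7-fold higher in FXR-/- (adjusted p = 1.2e-14). Jun, its AP-1 partner, read 8.34 and 8.17 on the FXR-/- arrays, against 5.09 and 4.71 on the SHP-/- arrays (3.36 ± 0.15), with 1 of the SHP-/- arrays at background. Cyp2c39, a retinoic acid hydroxylase of the Cyp2c family, read 10.35 and 10.46 on the FXR-/- arrays, against 5.72 and 5.67 on the SHP-/- arrays, 26.2-fold higher (adjusted p = 1.12e-16). Cyp2c50 of the same gene cluster read 9.36 and 9.31 on the FXR-/- arrays, against 6.07 and 5.97 on the SHP-/- arrays (3.32 ± 0.17). The genotypes do not overlap here because genes were chosen that way, and duplicates of these 4 genes differed by less than 0.4. Hbb-b2, an adult beta-globin gene, read 9.91 and 9.99 on the FXR-/- arrays, against 5.74 and 5.84 on the SHP-/- arrays (4.16 ± 0.10), while the beta-globin probe Hbb-bt ran the other way at 4.86 and 4.71 on the FXR-/- arrays, against 7.53 and 7.62 on the SHP-/- arrays and was undetected in FXR-/-. The remaining large rises were Tsc22d1, a leucine zipper regulator, at 2.88, Pnrc2, a cofactor of nuclear receptors and mRNA decay, at 2.65, and Rgs1 and Gdpd3, both undetected in SHP-/-. Rgs1, a brake on G protein signalling, was at least 5.03-fold higher and Gdpd3, a phospholipid-cleaving enzyme, was at least 4.94-fold higher.

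**Figure D2:**
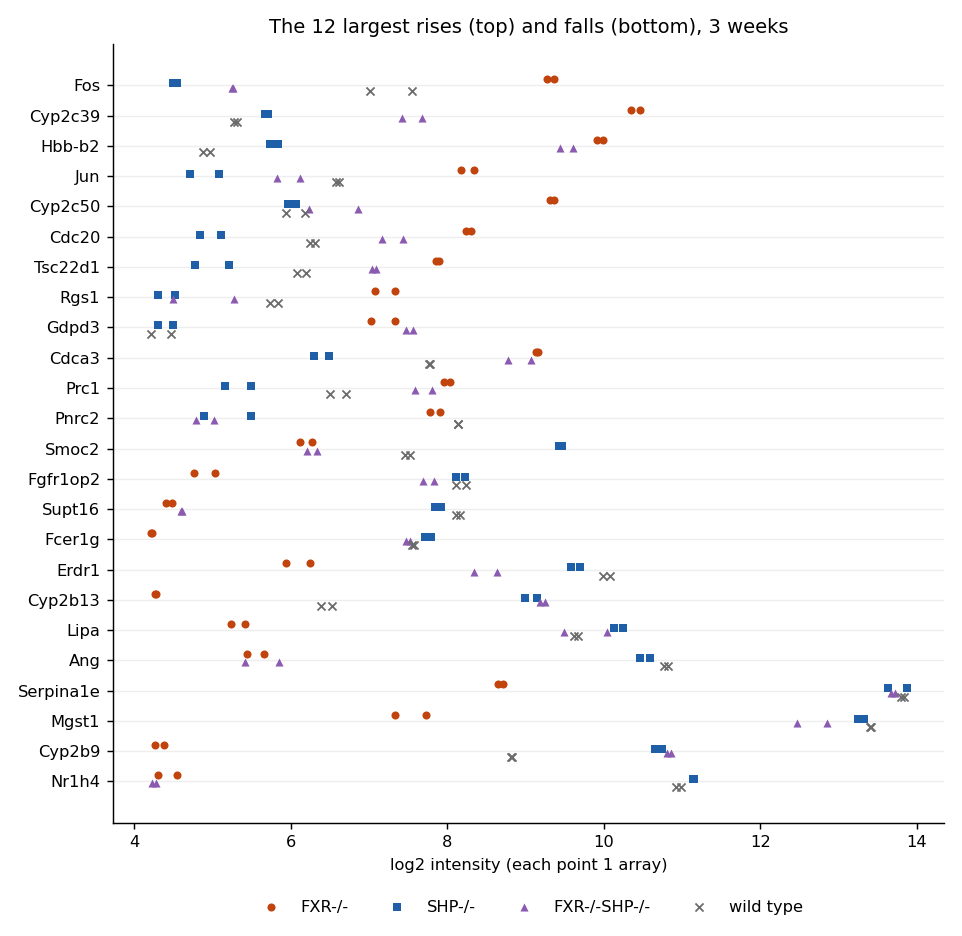
Log2 intensity on each 3-week array (horizontal axis) for the 12 genes with the largest rises (top rows) and the 12 with the largest falls (bottom rows) in FXR-/- relative to SHP-/-. Each point is 1 array, with orange circles for FXR-/-, blue squares for SHP-/-, purple triangles for FXR-/-SHP-/- and grey crosses for wild type. The genes were chosen among those whose FXR-/- and SHP-/- arrays did not overlap, so the gap between orange and blue points follows from that choice.

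Bile acid synthesis differed at some of its steps. Cyp7a1, the rate-limiting enzyme of the classical pathway, read 12.29 and 12.31 on the FXR-/- arrays, against 10.50 and 10.63 on the SHP-/- arrays, and so was 3.33-fold higher in FXR-/- (1.74 ± 0.10, adjusted p = 2.33e-10). Cyp7b1, which hydroxylates oxysterols in the alternative pathway, read 9.19 and 9.24 on the FXR-/- arrays, against 7.97 and 8.06 on the SHP-/- arrays (1.19 ± 0.12). Both were higher on each FXR-/- array, but the arrays of the genotypes also did not overlap for 66.9% of all genes. Cyp8b1, which directs synthesis to cholic acid, was 0.20 (adjusted p = 0.0898) and did not pass, nor did Cyp27a1 at -0.03 and Baat, the conjugating enzyme, at -0.16. Slc27a5, the bile acid CoA ligase that prepares conjugation, was lower at -0.68 ± 0.08. The list of bile acid synthesis and conjugation had 43.8% called, beside 28.9% of all genes. Of 16 measured genes of bile acid synthesis and conjugation 3 were higher and 4 lower, with a median of -0.02, and 1 to 2 were lower when any 1 of the 4 arrays was left out.

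Transcripts for export into bile were lower in FXR-/- than in SHP-/-. Of 6 measured canalicular transporters 5 were lower and none higher, with a median of -0.63 beside -0.02 over all genes. That is 83.3% called, beside 28.9% of all genes. Abcb11, the bile salt export pump, read 8.82 and 8.93 on the FXR-/- arrays, against 9.91 and 10.02 on the SHP-/- arrays, a 2.13-fold lower level (-1.09 ± 0.09, adjusted p = 3.02e-08). Abcg5 and Abcg8, the subunits of the sterol exporter, were -0.92 and -0.71, and Abcb4, the phospholipid floppase, was -0.53. Abcc2, which exports conjugates, was -0.55 by its brightest probe, while a second probe was -0.03 and did not pass (adjusted p = 0.913). Slc47a1, an exporter of organic cations, was -0.20 (adjusted p = 0.144). In the double knockout at 3 weeks, which also lacks FXR, Abcb11 averaged 8.78, near FXR-/-. Abcg5 at 10.89, Abcg8 at 9.05, Abcc2 at 10.03 and Abcb4 at 11.08 stood near or above the SHP-/- means of 10.95, 8.71, 9.72 and 11.03. The wild-type means of these 5 genes were 9.84, 10.51, 7.97, 9.49 and 10.73 in the order named. On the blood side, of 10 measured uptake and basolateral efflux genes 3 were higher and 4 lower (70% called). Slc51b, a subunit of the basolateral bile acid exporter, was undetected in FXR-/- and at least 1.87-fold lower, and Slc10a1, the sodium-dependent uptake carrier, was -0.85. Abcc4, a basolateral efflux pump, was higher at 0.81, and Slc51a was below detection on all 4 arrays.

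The promoter of Abcb11 is shown because this pump is the canalicular transporter with the largest fall and FXR binds DNA as a dimer with RXR at inverted repeats of a hexamer. The sequence, from RefSeq, covers 250 bases before to 50 after the gene start, on chr2:69342567-69342866, minus strand, GRCm38.p6, with capitals on a match to the inverted repeat, the half-sites GGNCA and TGNCC with 1 free base between them.
Abcb11: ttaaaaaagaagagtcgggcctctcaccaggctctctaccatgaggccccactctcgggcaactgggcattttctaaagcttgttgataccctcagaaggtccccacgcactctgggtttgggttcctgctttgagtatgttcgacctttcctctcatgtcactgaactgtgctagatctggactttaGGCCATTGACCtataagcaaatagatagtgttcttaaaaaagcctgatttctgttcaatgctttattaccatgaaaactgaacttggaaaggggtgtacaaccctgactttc
The match begins at position -62 from the gene start. This motif was found on either strand in 185 of 27025 promoters (0.685%) and in 2 of the 9 promoters available for the 10 FXR target genes called lower, those of Abcb11 and Rdh9. A wider form, GGNCA and TGNNCC with 1 free base between them, was searched first and was in 368 promoters (1.36%) and in none of those 9. The narrower form was written after the Abcb11 sequence had been read, so its match there is a description of that sequence and no independent finding.

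Nuclear receptors shifted downwards in part. Of 26 measured nuclear receptors and liver transcription factors 9 were lower, Nr1h4 included, and 3 higher. That is 46.2% called, beside 28.9% of all genes. Ppargc1a, a coactivator of energy metabolism, was -1.06, Nr1i2, the xenobiotic receptor PXR, was -0.91, and Ppara, the fatty acid receptor, was -0.74. Pparg, the adipogenic receptor, was higher at 0.92, and Hnf4a, a master regulator of hepatocytes, was -0.03 (adjusted p = 0.84). Nr5a2, which drives Cyp7a1, was 0.30 (adjusted p = 0.148).

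Genes reported as FXR targets did not move one way, with 73.9% called beside 28.9% of all genes. Of 23 measured 10 were lower and 7 higher in FXR-/-, with a median of -0.13, and 4 were higher without the first FXR-/- array. Apoc2, the activator of lipoprotein lipase, read 5.90 and 5.54 on the FXR-/- arrays, against 8.60 and 8.56 on the SHP-/- arrays, 7.26-fold lower (-2.86 ± 0.12). Scarb1, the HDL receptor, was -0.70 and Sdc1, a lipoprotein-binding proteoglycan, was -0.45. In the opposite direction Slc3a1, a subunit of the cystine transporter, read 9.34 and 9.20 on the FXR-/- arrays, against 7.51 and 7.53 on the SHP-/- arrays (1.74 ± 0.10), and Vldlr, the VLDL receptor, was 0.72. Fetub and Apoa1 were 0.19 and -0.02 and did not pass. Among 21 lipoprotein genes 4 were higher and 3 lower, which makes 33.3% called, near the 28.9% of all genes. Apoa4 and Apob, proteins of triglyceride-rich particles, were higher at 1.32 and 0.89, and the receptor Lrp1 was lower at -0.94.

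Transcripts of xenobiotic metabolism were mostly higher in FXR-/-, with the Cyp2b genes among the exceptions. Of 28 measured CAR and PXR targets and xenobiotic enzymes 18 were higher and 5 lower (median 0.43). That is 82.1% called, beside 28.9% of all genes called, 14.8% higher and 14.1% lower. Besides Cyp2c39 and Cyp2c50, Cyp2a4, a steroid 15-alpha-hydroxylase, read 13.29 and 13.28 on the FXR-/- arrays, against 11.33 and 11.31 on the SHP-/- arrays (1.97 ± 0.08). The lower members were Cyp2b9, Cyp2b13, Cyp2b10 at -1.62, Cyp2c29 at -1.16 and the sulfotransferase Sult1d1 at -0.44, the last of which had adjusted p = 0.0706 without the second FXR-/- array. Of 20 NRF2 targets and glutathione transferases 12 were higher and only Mgst1 was lower (median 0.46, 65% called). Gsta1 and Gsta2, inducible transferases, were 1.40 and 1.31, Ephx1, the microsomal epoxide hydrolase, was 1.29 and Nqo1, a quinone reductase, was 0.76. Gclc, the enzyme that limits glutathione synthesis, was -0.11 (adjusted p = 0.819). The brightest probe of Gstm6 was 0.70 higher and a second one 0.28 lower.

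Nutrient metabolism moved in both directions. Of 19 genes of gluconeogenesis and amino acid catabolism 11 were lower and 2 higher (median -0.39). That is 68.4% called, beside 28.9% of all genes. Prodh, the first enzyme of proline breakdown, read 8.70 and 8.70 on the FXR-/- arrays, against 9.89 and 10.004 on the SHP-/- arrays (-1.25 ± 0.10), and Ass1 of the urea cycle read 12.31 and 12.29 on the FXR-/- arrays, against 13.46 and 13.59 on the SHP-/- arrays (-1.22 ± 0.07). Both were lower on each FXR-/- array, but the arrays of the genotypes also did not overlap for 66.9% of all genes. Pck1, the committed step of gluconeogenesis, was -0.58, and it no longer passed without the first FXR-/- array (adjusted p = 0.074) or the second SHP-/- array (adjusted p = 0.105). In contrast G6pc, the last step, was higher at 0.89 and Slc38a2, an amino acid carrier, at 1.58. Of 16 genes of glycolysis and glycogen 5 were higher and 4 lower, and only 2 were lower when an array other than the first SHP-/- array was left out. Pklr, the liver pyruvate kinase, was 1.41, and Slc2a2, the glucose carrier, was -0.52. The glycolysis and glycogen list had 56.2% called.

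Fatty acid genes were split as well. Of 20 genes of fatty acid and triglyceride synthesis 5 were higher and 5 lower, with 3 lower when the first SHP-/- array was left out. Pnpla3, a lipid droplet protein, read 7.15 and 7.32 on the FXR-/- arrays, against 5.61 and 5.45 on the SHP-/- arrays (1.70 ± 0.13), Elovl6, a fatty acid elongase, was 0.91, and Agpat2 of triglyceride assembly was -0.72. Fasn and Scd1, the synthase and the desaturase, were 0.02 and 0.18 and did not pass. Of 18 genes of fatty acid oxidation and PPAR-alpha targets 9 were higher and 2 lower, or 1 lower without the second FXR-/- or the first SHP-/- array. Fgf21, a fasting hormone, was undetected in SHP-/- and at least 2.24-fold higher in FXR-/-, and Pdk4, which spares glucose, was 1.24, while Cyp4a14, a PPAR-alpha target, was -0.82. Of 17 cholesterol synthesis genes 3 were lower and 1 higher, or none higher without the first array of either genotype. Lss and Dhcr7, late enzymes of the pathway, were -0.81 and -0.63. The synthesis list of fatty acids and triglycerides had 50% called and the oxidation list 61.1%, beside 28.9% of all genes. The cholesterol list had 23.5% called, below the share of all genes.

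Sex-biased and growth-related liver genes did not follow a single direction. Of 15 male-biased genes 8 were higher and 4 lower, and of 18 female-biased genes 9 were higher and 5 lower. That is 80% and 77.8% called, beside 28.9% of all genes. Serpina12, a male-biased protease inhibitor, read 8.56 and 8.41 on the FXR-/- arrays, against 5.95 and 5.89 on the SHP-/- arrays (2.56 ± 0.09), and the male-biased complement gene C6 was 1.67. The male-biased major urinary protein gene Mup3 was lower at -1.56. Among female-biased genes, Cyp2a4 was higher and Cyp2b9 and Cyp2b13 were lower. In steroid metabolism Rdh16, a retinol and hydroxysteroid dehydrogenase, was 1.45 and Hsd17b6 was -1.36. Of 13 steroid metabolism genes 5 were higher and 2 lower (53.8% called). Only 3 were higher without the first FXR-/- or the second SHP-/- array, and 1 was lower without any 1 array.

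Growth factor and perinatal genes stood apart for single members. Igfbp2, a binding protein of insulin-like growth factors, read 7.11 and 7.19 on the FXR-/- arrays, against 9.79 and 9.70 on the SHP-/- arrays, 6.07-fold lower (-2.60 ± 0.10). Bcl6, a repressor tied to growth hormone signalling, read 7.42 and 7.33 on the FXR-/- arrays, against 8.98 and 9.10 on the SHP-/- arrays (-1.66 ± 0.09), while Socs2, a feedback inhibitor of that pathway, was higher at 1.18. Igf1 itself was 0.17 (adjusted p = 0.222). Over 16 genes of the axis 5 were higher and 3 lower, with 3 higher when the first SHP-/- array was left out. Of 13 perinatal liver genes 5 were lower and 1 higher. The called shares were 50% of the axis and 46.2% of the perinatal genes, beside 28.9% of all genes. Igf2, the fetal growth factor, was -1.39, Gpc3, an oncofetal proteoglycan, was -1.10 and Afp, alpha-fetoprotein, was undetected in FXR-/- and at least 1.17-fold lower, with a difference that no longer passed without the first SHP-/- array (adjusted p = 0.097).

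Acute phase genes were higher in part, with 50% called beside 28.9% of all genes. Of 26 measured 11 were higher and 2 lower (median 0.11), with 1 lower without the first FXR-/- or the second SHP-/- array. Saa1 and Saa2, the main inducible serum amyloid genes, read 12.48 and 12.48 on the FXR-/- arrays, against 10.62 and 10.63 on the SHP-/- arrays for Saa1 (1.86 ± 0.11) and 9.23 and 9.26 on the FXR-/- arrays, against 7.28 and 7.29 on the SHP-/- arrays for Saa2 (1.96 ± 0.12). Saa3 was 2.02 and Lcn2, an iron-siderophore binder, was 1.0. In contrast Lbp, the lipopolysaccharide-binding protein, was lower at -1.03, and Hp, haptoglobin, was -0.02 (adjusted p = 0.883). Of 44 complement, coagulation and protease inhibitor genes 7 were higher and 10 lower, and 6 were lower when an FXR-/- array was left out. Serpina7, the thyroxine-binding globulin, was 2.27, and Mug1, a protease inhibitor, was -1.70. This list had 38.6% called and the interferon list 41.2%, beside 28.9% of all genes. Of 17 interferon genes 2 were higher, among them the chemokine Cxcl9 at 2.14, and 5 lower, among them Tap1 and Irf1 at -0.64 and -0.61. Only 3 were lower when an FXR-/- array was left out.

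**Figure D3:**
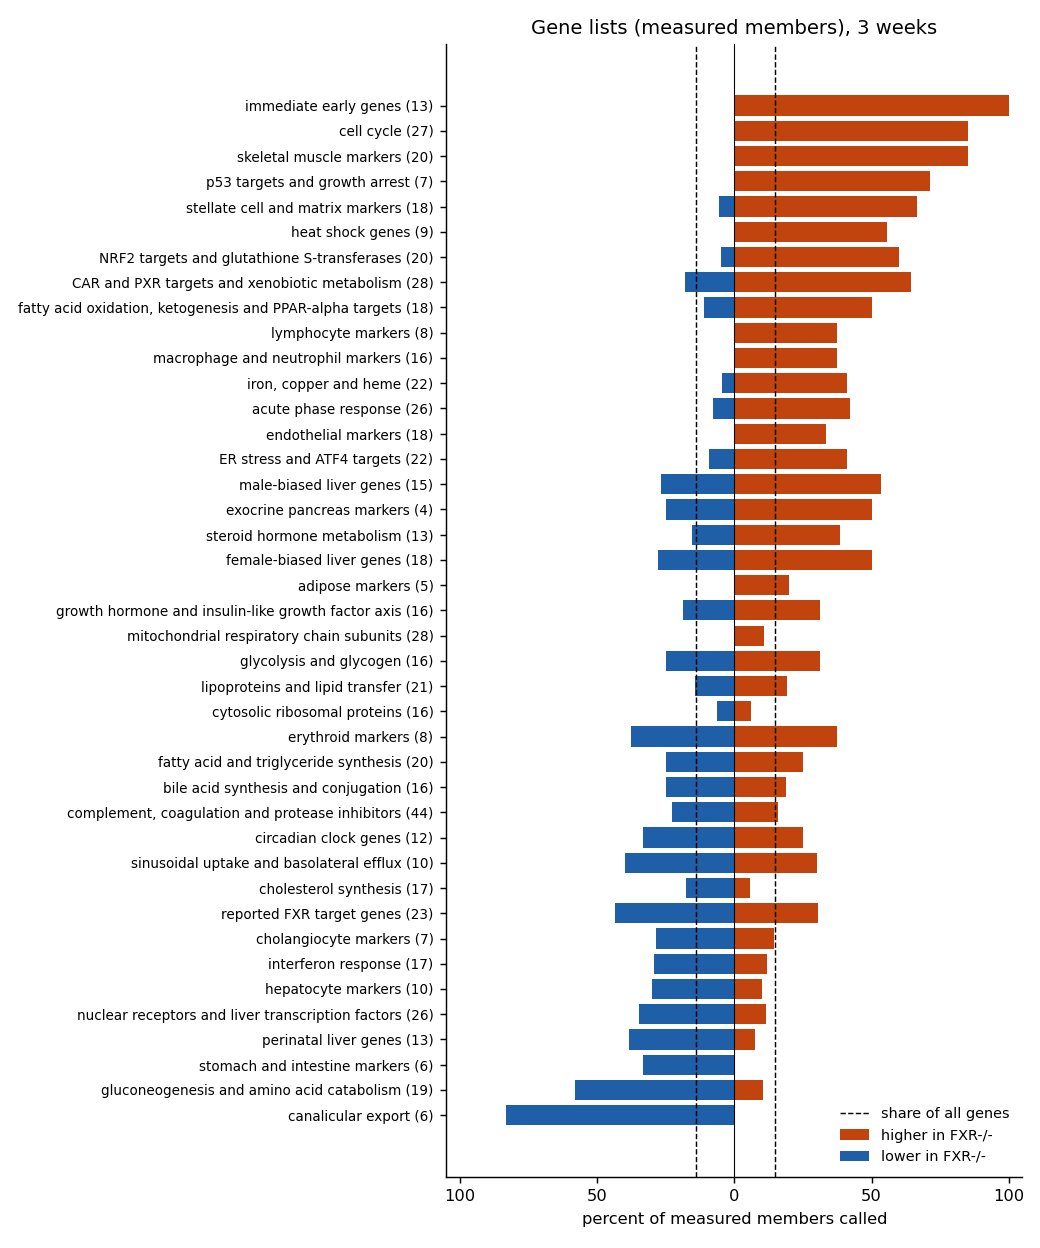
Percent of the measured members of each gene list that were higher (orange, to the right) or lower (blue, to the left) in FXR-/- than in SHP-/- at 3 weeks, with the number of measured members in brackets. Dashed lines mark the shares over all genes, 14.8% higher and 14.1% lower. All 13 measured immediate early genes were higher, 8 of them detected on all 4 arrays, and 5 of 6 canalicular transporters were lower.

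Genes of cell division were higher in FXR-/- than in SHP-/-. Of 27 measured cell cycle genes 23 were higher and none lower, with a median of 1.18, beside 14.8% higher among all genes. Cdc20, the activator of the anaphase-promoting complex, read 8.31 and 8.24 on the FXR-/- arrays, against 4.85 and 5.11 on the SHP-/- arrays (3.29 ± 0.14, adjusted p = 3.73e-12), with 1 SHP-/- array at background. Cdca3, a trigger of mitotic entry, read 9.16 and 9.14 on the FXR-/- arrays, against 6.30 and 6.49 on the SHP-/- arrays (2.76 ± 0.11), and Prc1, which bundles the central spindle, read 8.03 and 7.96 on the FXR-/- arrays, against 5.49 and 5.16 on the SHP-/- arrays (2.67 ± 0.18). All 3 are among the 12 largest rises, so their genotypes do not overlap because genes were chosen that way. The mitotic kinases Plk1 and Cdk1 were 2.12 and 1.58, and Aurka, undetected in SHP-/-, was at least 3.63-fold higher. The replication helicase genes Mcm2, Mcm4, Mcm5, Mcm6 and Mcm7 were 1.06, 1.05, 1.85, 1.21 and 0.94. Of the 27 measured genes 19 were detected on all 4 arrays. Pcna, the replication clamp, and Tk1, thymidine kinase, were 0.08 and 0.07 and did not pass. The mean log2 intensity of the 27 genes was 7.14 and 7.10 on the FXR-/- arrays, against 5.81 and 5.80 on the SHP-/- arrays. It was 6.86 and 6.93 in the double knockout and 6.25 and 6.30 in wild type of the same age. Members undetected in SHP-/-, such as Aurka, entered through detection in FXR-/- alone. The count of higher members, the median and the order of these averages are therefore partly set by that choice. Of 7 p53 targets and growth arrest genes 5 were higher and none lower (71.4% called, beside 28.9% of all genes). They were led by the cyclin-dependent kinase inhibitor Cdkn1a, which read 8.16 and 8.12 on the FXR-/- arrays, against 5.86 and 5.53 on the SHP-/- arrays (2.45 ± 0.12).

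The promoters of the 3 cell cycle genes with the largest rises are shown because genes of late cell division share a cell cycle homology region, TTTGAA, often beside CCAAT boxes. Each sequence is from RefSeq, GRCm38.p6, 250 bases before to 50 after the gene start, and capitals mark both motifs on either strand.
Cdc20, on chr4:118437294-118437593, minus strand: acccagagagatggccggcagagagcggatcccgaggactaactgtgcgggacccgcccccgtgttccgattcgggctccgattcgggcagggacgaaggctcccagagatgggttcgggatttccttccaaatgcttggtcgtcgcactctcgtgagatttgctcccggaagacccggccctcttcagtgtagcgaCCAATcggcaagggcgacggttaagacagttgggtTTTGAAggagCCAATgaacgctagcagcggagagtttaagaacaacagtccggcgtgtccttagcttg
Cdca3, on chr6:124829926-124830225, plus strand: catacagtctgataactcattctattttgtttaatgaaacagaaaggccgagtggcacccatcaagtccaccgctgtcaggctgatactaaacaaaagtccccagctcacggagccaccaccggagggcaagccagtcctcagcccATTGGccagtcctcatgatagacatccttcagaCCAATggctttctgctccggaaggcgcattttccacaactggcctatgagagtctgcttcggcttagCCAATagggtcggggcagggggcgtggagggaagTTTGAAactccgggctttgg
Prc1, on chr7:80294201-80294500, plus strand: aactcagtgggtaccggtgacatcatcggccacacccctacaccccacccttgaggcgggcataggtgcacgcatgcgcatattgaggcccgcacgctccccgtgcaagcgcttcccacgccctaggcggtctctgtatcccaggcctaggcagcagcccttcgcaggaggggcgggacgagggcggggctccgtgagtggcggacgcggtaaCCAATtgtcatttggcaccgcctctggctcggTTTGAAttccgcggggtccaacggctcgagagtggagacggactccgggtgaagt
All 3 hold both motifs. Of the 23 genes called higher 18 had a promoter in the table, 10 with TTTGAA and 15 with CCAAT, while 18.1% and 37.9% of all 27025 promoters hold them. The motifs were chosen after the gene values were known.

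Immediate early genes, which cells switch on within minutes of a stimulus, were higher in FXR-/-. The 13 measured members of 20 listed passed the test, with a median of 1.96, beside 28.9% called and 14.8% higher among all genes. Of the 13, 8 were detected on all 4 arrays. Besides Fos and Jun, Egr1, a zinc finger factor, read 11.42 and 11.31 on the FXR-/- arrays, against 9.22 and 9.21 on the SHP-/- arrays (2.15 ± 0.10), Dusp1, a phosphatase that ends kinase signalling, was 2.12, and Gadd45g, a stress sensor, was 2.17. Atf3, a stress-induced factor, was undetected in SHP-/- and at least 3.14-fold higher. Jund, another Jun family member, had the smallest difference of the list at 0.74. The list averaged 8.35 and 8.37 on the FXR-/- arrays, against 6.39 and 6.34 on the SHP-/- arrays, with 6.80 and 6.83 in the double knockout and 7.16 and 7.2 in wild type. Members were kept by detection in FXR-/- or SHP-/-, and those undetected in SHP-/- entered through FXR-/- alone. The count of higher genes, their median and the order of these averages are therefore partly set by that choice. Of the 12 promoters available for these genes 2, those of Atf3 and Dusp1, held the cyclic AMP response element TGACGTNA, found in 3.08% of all promoters. The serum response element was searched only as a single fixed sequence, which 21 of 27025 promoters hold (0.0777%) and none of the 12. A sequence this rare was unlikely to appear in 12 promoters, and variable forms of the element were not searched. Sites more than 250 bases before the gene start lay outside the search. Whether these genes have a serum response element was therefore not tested.

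**Figure D4:**
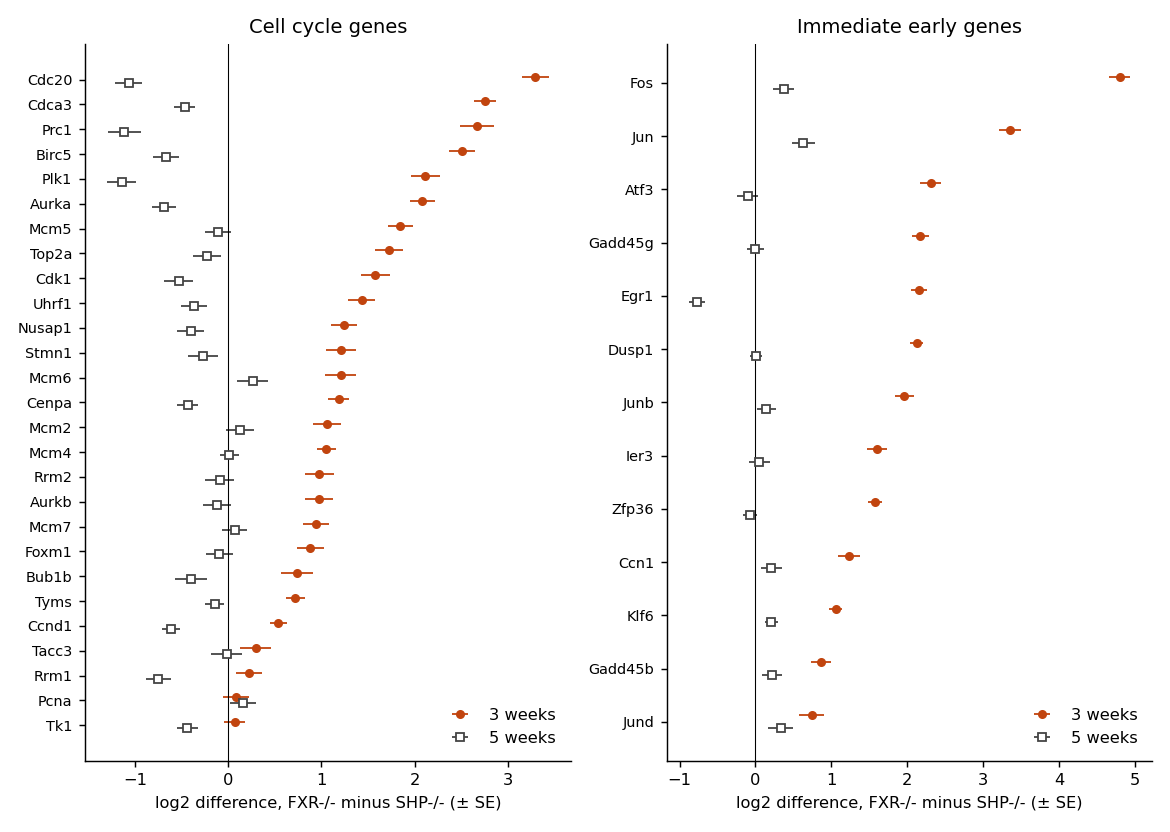
Log2 difference between FXR-/- and SHP-/- livers (horizontal axis, FXR-/- minus SHP-/-, bars are SE, n = 2 arrays per group) for 27 cell cycle genes (left) and 13 immediate early genes (right) at 3 weeks (filled orange circles) and 5 weeks (open squares). Points are differences of measured intensities, also where a genotype was undetected, so their size is then no fold. At 3 weeks all points lie right of 0, with Cdc20 and Fos (undetected in SHP-/-) farthest, and at 5 weeks Cdc20 (undetected in FXR-/-) lies left of 0.

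Markers of other tissues and cell types moved with the genotypes. Of 20 measured skeletal muscle markers 17 were higher in FXR-/- and none lower (median 1.47), and 15 of the 20 were detected on all 4 arrays. That is 85% called, beside 28.9% of all genes. Of the 25 listed genes on the array 20 were detected on both FXR-/- arrays, against 15 on both SHP-/- arrays. Acta1, the actin of skeletal muscle, read 10.47 and 10.50 on the FXR-/- arrays, against 8.50 and 8.38 on the SHP-/- arrays (2.04 ± 0.09), and Tnni2, a fast troponin, read 9.03 and 9.28 on the FXR-/- arrays, against 6.83 and 6.88 on the SHP-/- arrays (2.30 ± 0.13). The list averaged 6.94 on both FXR-/- arrays, against 5.68 and 5.66 on the SHP-/- arrays. It was 7.82 and 7.93 in the double knockout and 4.60 and 4.64 in wild type. Markers not detected on both SHP-/- arrays entered through detection in FXR-/- alone. The count of higher markers, the median and the order of these averages are therefore partly set by that choice. Not counting the members of the muscle, pancreas, stomach and adipose lists, the same fit called 2142 genes. The fit itself was not repeated without them. Of 23 exocrine pancreas markers on the array only 4 passed detection, and they averaged 8.45 and 8.43 in FXR-/- and 7.99 and 8.0 in SHP-/-. Of these 2 were higher and 1 lower (75% called), with Cela2a, a pancreatic elastase, at 1.42 and Cela1 at -0.38. The counts were 1 higher without the second FXR-/- or either SHP-/- array, and none lower without the second array of either genotype, where Cela1 had adjusted p = 0.141 and 0.13. The part of such tissue in the other results was not tested.

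Markers of the liver's other cell types differed to unequal extents. Of 18 stellate cell and matrix markers 12 were higher (median 0.40) and only Sparc, a matrix glycoprotein, was lower, undetected in FXR-/- and at least 2.99-fold lower. The count of higher markers was 7 without the first FXR-/- array, 6 without the second and 7 without the first SHP-/- array. Acta2, the smooth muscle actin of activated stellate cells, was 0.77 and Col1a1, a fibrillar collagen, was 0.46, with adjusted p = 0.07, 0.185 and 0.247 in those same 3 fits. Of 18 endothelial markers 6 were higher, of 16 macrophage and neutrophil markers 6 and of 8 lymphocyte markers 3, with none lower in these lists. That is 33.3%, 37.5% and 37.5% called, beside 28.9% of all genes called and 14.8% higher. The called shares were 72.2% of stellate cell and matrix, 75% of erythroid and 40% of hepatocyte markers. They were 42.9% of cholangiocyte, 33.3% of stomach and intestine and 20% of adipose markers. The chemokine Cxcl1 was 1.98, Cd74 of antigen presentation was 1.40, and the Kupffer cell lectin Clec4f was -0.14 (adjusted p = 0.346). Of 7 cholangiocyte markers 1 was higher and 2 lower, or 1 lower without either FXR-/- array or the first SHP-/- array, and Krt19 and Epcam, which define bile ducts, were below detection on all 4 arrays. Of 10 hepatocyte markers 1 was higher and 3 lower, or 1 lower without either FXR-/- array or the second SHP-/- array. Of 8 erythroid markers 3 were higher and 3 lower, with Klf1, a red cell transcription factor, at -0.99. Stomach and intestine markers had 2 lower of 6, or 1 without the second FXR-/- array, and adipose markers 1 higher of 5.

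Stress, clock and housekeeping genes completed the lists. Ribosomal protein genes and respiratory chain subunits had 12.5% and 10.7% called, below the 28.9% of all genes. The shares were 50% of ER stress and ATF4 targets, 55.6% of heat shock, 58.3% of clock and 45.5% of iron, copper and heme genes. Of 22 ER stress and ATF4 targets 9 were higher and 2 lower, and Trib3, a stress-induced pseudokinase, was among the lower ones at 6.07 and 5.93 on the FXR-/- arrays, against 8.21 and 8.19 on the SHP-/- arrays (-2.20 ± 0.09), while the chaperone Hspa5 was -0.03 and did not pass. Of 9 heat shock genes 5 were higher, led by Cryab at 0.90, with 2 to 3 when 1 array was left out. Of 12 clock genes 3 were higher and 4 lower. Dbp, a clock output factor, read 7.39 and 7.37 on the FXR-/- arrays, against 9.09 and 9.06 on the SHP-/- arrays (-1.70 ± 0.11) and Nr1d1 was -1.0, whereas Per1 was 1.07 and the core gene Arntl was 0.11. The labels give no time of day, and its part was not tested. Of 22 iron, copper and heme genes 9 were higher and 1 lower, or none lower without the second array of either genotype, with the heme enzymes Alas1 and Alad at 0.98 and 0.88. Among genes of basic cell function, 1 of 16 ribosomal protein genes was higher and 1 lower, and 3 of 28 respiratory chain subunits were higher, or 1 without the first FXR-/- array.

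The same genotypes at 5 weeks, on separate arrays, gave a partly different picture. At 5 weeks 1296 of the 7484 genes differed (17.3%), 661 higher (8.83%) and 635 lower (8.48%). These genes were kept by detection at 3 weeks alone, so genes detected only at 5 weeks are missing. The smaller share at 5 weeks may be partly set by that choice. Of the 1107 genes higher in FXR-/- at 3 weeks, 352 were higher at 5 weeks, 87 lower and 668 did not pass. Of the 1058 lower genes, 321 were lower at 5 weeks, 25 higher and 712 did not pass. Across the 7484 genes, which are not independent, the differences at the 2 ages correlated with Pearson's r of 0.349 and Spearman's rho of 0.336, on arrays normalized together. Age and slide cannot be told apart, since all 3-week arrays lie on 1 slide and all 5-week arrays on another. The difference between ages itself passed the test for 949 genes (12.7%), 505 with a higher value at 3 weeks (6.75%) and 444 with a lower one (5.93%).

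Large differences at both ages were those of Cyp2c39, at 4.71 at 3 weeks and 3.95 at 5 weeks, of Cyp7a1, at 1.74 and 1.5, and of Apoc2, at -2.86 and -2.88. Nr1h4, undetected in FXR-/- and at least 77.5-fold lower at 3 weeks, was -5.17 at 5 weeks, where its arrays read 5.92 and 5.97 in FXR-/-, against 11.18 and 11.03 in SHP-/-, with the low signal in FXR-/- detected. Abcb11 was -1.09 and -1.13. Each of these 5 genes had the same direction at both ages, and the test of the age difference did not pass for Abcb11 (0.04 ± 0.13), Cyp7a1 (0.24 ± 0.15) or Apoc2 (0.02 ± 0.17).

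Other groups differed between the ages. The age difference passed for all 20 muscle markers, for 25 of 27 cell cycle genes and for 12 of 13 immediate early genes. In each case the value was higher at 3 weeks. Among all genes 12.7% passed, 6.75% with a higher value at 3 weeks. Members were kept by detection at 3 weeks alone, so these counts are partly set by that choice. Among the members detected on at least 1 array of both genotypes at both ages, the age difference passed for all 5 muscle markers, 16 of 18 cell cycle genes and 8 of 9 immediate early genes. Acta1 was 2.04 at 3 weeks and -6.11 at 5 weeks, where the arrays read 5.89 and 5.95 in FXR-/-, against 12.09 and 11.98 in SHP-/-. Cdc20 was 3.29 at 3 weeks, with 1 SHP-/- array at background, and at 5 weeks it was undetected in FXR-/- and at least 1.72-fold lower there. Cyp2b13, at least 18.4-fold lower in FXR-/- at 3 weeks, was undetected in both genotypes at 5 weeks. In the other direction from the muscle markers, Sult2a2, a sulfotransferase of bile acids and steroids, was 0.99 and then 3.95. Of canalicular transporters, Abcg8 was -0.71 at 3 weeks and 0.05 at 5 weeks.

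**Figure D5:**
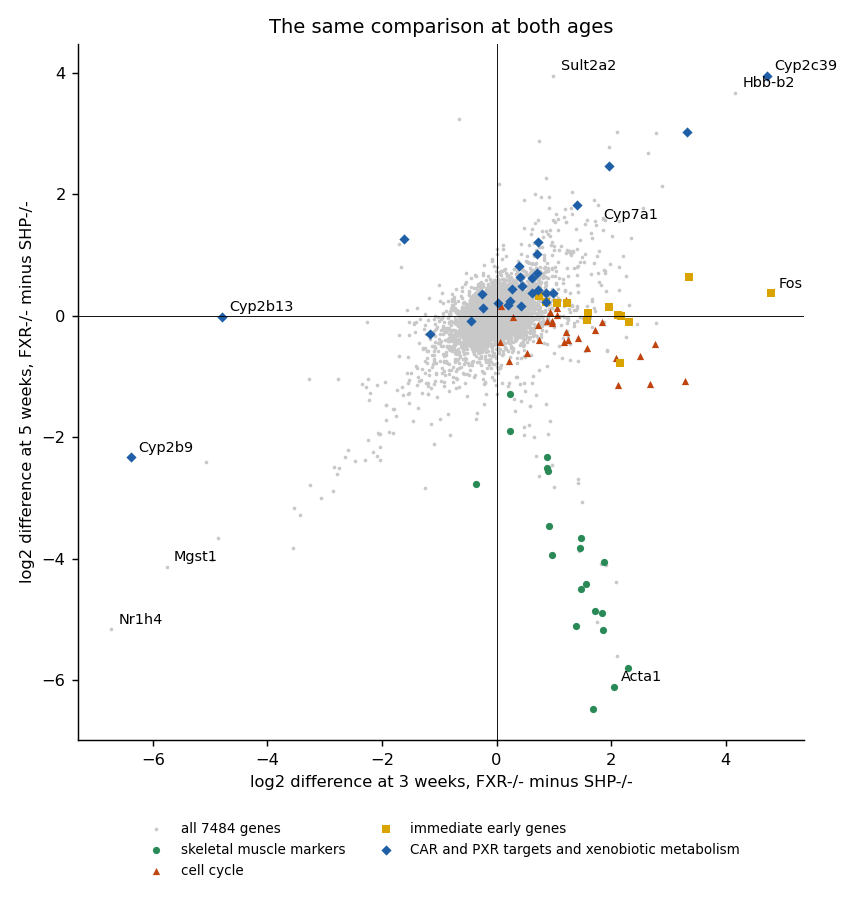
Log2 difference between FXR-/- and SHP-/- livers (FXR-/- minus SHP-/-) at 3 weeks (horizontal axis) and at 5 weeks (vertical axis) for 7484 genes, with 4 gene lists in colour. Points are differences of measured intensities, also where a genotype was undetected. Muscle markers lie low at 5 weeks, where Atp2a1 was undetected in FXR-/- and at least 61.0-fold lower, cell cycle and immediate early genes spread to the right, and Nr1h4, Mgst1, Cyp2c39 and Hbb-b2 have large differences of 1 sign at both ages.

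Probes of 1 gene did not always agree. Of 1158 genes with more than 1 member probe, 153 had all probes called in the same direction, 346 had some called and some not, 8 had probes called in opposite directions and 651 had none called. Rps9, the ribosomal protein gene called higher at 0.38, was among the 8, and the mean of its probes was -0.0693.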

How the data were processed

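Total RNA of mouse liver was hybridized to Illumina bead arrays. The intensity values in the deposited table were exported from BeadStudio without normalization, per the file headers, with a detection p-value per probe. The deposited table also gives the standard error of the bead signal, per the file headers. A second deposited table holds log2 values that the authors quantile-normalized, its transform not stated in the sources used here. It served as an alternative.

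Background correction and quantile normalization used the limma function neqc (limma 3.58.1 under R 4.3.3), with the negative controls inferred from detection p-values and an offset of 16. All 16 arrays were fitted with 1 mean per group (lmFit, eBayes with trend, 8 residual degrees of freedom). Kept probes had detection p under 0.01 on both arrays of FXR-/- or of SHP-/- at 3 weeks, and p-values were adjusted by Benjamini-Hochberg over the 10032 kept probes, with calls at 0.05. A gene was read from its brightest kept probe. Where a probe was undetected on both arrays of a genotype, its fold is a lower bound, set against the lowest detected signal of each array or the probe's own signal, whichever was higher. Of 24613 probes 20984 had 1 symbol, 1 had several and 3628 had none. Probes of gene families (Cyp2b, Cyp2c, Cyp2a, Serpina1, Saa, Hbb, Gst and Mup) may bind near-identical copies, so their values are uncertain between members.

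Named were the 12 largest rises and 12 largest falls whose arrays did not overlap, up to 4 called members per list (or its brightest members), the neighbours of the deleted genes and the 6 largest age differences each way. Other list members were named after their values were seen. The members and lists were chosen with earlier results of these data known. The fit was tested on simulated data for 10032 probes. It recovered 43.9% of 66 probes changed by 0.5 on the log2 scale. Of 67 probes each changed by 1 and by 2 it recovered 94% and 100%. Unchanged probes gave 15 false calls. Alternatives were other offsets, background corrections, scalings, filters, array sets, array weights, the replicate number as a block, and each compared array left out. The number of arrays limits the precision.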

Additional observations from a re-analysis of the deposited data

Results flagged for a closer look

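The difference between FXR-/- and SHP-/- livers was not the same at 3 and at 5 weeks for 949 genes by the limma test of that difference. The values below are the log2 difference at 3 weeks minus that at 5 weeks, so a positive value means that FXR-/- stood relatively higher over SHP-/- at 3 weeks. They cover each named gene that passed, 52 with a positive and 40 with a negative value. Age and slide cannot be told apart. In 18 of the 92 genes at least 1 genotype was undetected on both arrays of an age, so the size of the value depends on the background level and is no fold. These are Atp2a1, Tnni2, Fabp3, Pvalb, Tpm2, Cdc20, Plk1, Cdk1, Mybpc1, Aurka, Cyp2b9 and Slc51b (undetected in FXR-/- at 5 weeks, the last 4 also in 1 genotype at 3 weeks), Cyp2b13, Atf3, Fgf21 and Rgs1 (undetected in both genotypes at 5 weeks and in 1 at 3 weeks), Fos (undetected in SHP-/- at both ages) and Nr1h4 (undetected in FXR-/- at 3 weeks).

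Muscle genes had high positive values. Actin gene Acta1 gave 8.15, the calcium pump Atp2a1 8.15, troponin Tnni2 8.10, the fatty acid binder Fabp3 7.70, parvalbumin Pvalb 7.03 and tropomyosin Tpm2 6.79. Mybpc1 gave 3.43, the small heat shock gene Cryab 2.85 and pancreatic Cela2a 4.10. Among matrix genes Acta2 gave 0.90, Col1a1 0.90 and Smoc2 -0.46.

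Mitotic and growth-signal genes were also relatively higher at 3 weeks. Cdc20 gave 4.36, Prc1 3.79, Plk1 3.26, Cdca3 3.23, Aurka 2.77 and Cdk1 2.11. The helicase genes gave 0.93 for Mcm2, 1.04 for Mcm4, 1.96 for Mcm5, 0.95 for Mcm6 and 0.87 for Mcm7, and thymidine kinase Tk1 gave 0.51. Growth-arrest gene Cdkn1a gave 2.58. Of the immediate early genes Fos gave 4.42, Egr1 2.92, Jun 2.72, Atf3 2.40, Gadd45g 2.17 and Dusp1 2.11.

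Of 28 measured CAR and PXR targets and xenobiotic enzymes, 6 passed with a negative and 3 with a positive value. Cyp2b13 gave -4.78, Cyp2b9 -4.04, Cyp2b10 -2.89, Cyp2c29 -0.86, Cyp2a4 -0.50 and Mgst1 -1.62, while Cyp2c39 gave 0.76. The steroid and retinoid genes Sult2a2, Hsd17b6 and Rdh9 gave -2.96, -0.92 and -1.28. Abhd1, an alpha/beta hydrolase, gave -3.90.

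Bile acid, receptor and transport genes gave smaller values. Cyp7b1 gave 0.79, Abcg8 -0.76, Slc10a1 -1.09, Slc51b -0.55, Slc47a1 -0.50 and Slc3a1 0.76. Nr1h4 itself gave -1.56, Ppara -1.0, Pparg -0.85 and Ang -0.95.

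Metabolic genes were divided. Pdk4 gave 1.55, Slc38a2 1.43, Fgf21 1.22, Cyp4a14 1.14, G6pc 0.97 and Apob 0.71. Lipa gave -1.20, Prodh -1.10, Lss -0.86, Lrp1 -0.76 and Apoa4 -0.71. Elovl6 gave -0.44, Ass1 -0.44, Dhcr7 -0.38 and the heme enzyme Alas1 0.61.

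Secreted and immune genes moved both ways. Serpina1e gave -2.66, Mup3 -1.65, Mug1 -1.38, Serpina7 1.62, Serpina12 0.79 and C6 0.38. Lbp gave -0.85, Saa2 -0.82, Lcn2 -0.56 and Saa3 0.71. Rgs1 gave 2.91, Cxcl9 1.33, Cxcl1 1.13, Cd74 0.89 and Irf1 -0.75.

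Regulators of time and growth completed the set. Dbp gave -2.88, Nr1d1 -0.91 and Arntl 0.75, and Bcl6 gave -2.46 and Socs2 1.02. Trib3 gave -0.93, Tsc22d1 0.75, Klf1 -1.23, Hbb-b2 0.49 and Fgfr1op2 -2.23. What underlies these age differences was not tested.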

How the results depend on the processing

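Leaving out each of the 4 compared arrays in turn gave 1533 to 1576 called genes (799 to 852 higher and 724 to 734 lower), 346 to 366 genes at least 2-fold, 2002 to 2049 called probes and 684 to 707 genes with an age difference. The count of called genes lay between 1533 and 2652 over all alternatives run, which is within 1.5 times 2165. The count of genes at least 2-fold was 202 with an offset of 50 and 166 in the deposited processed table, beside 348. The age difference was called for 1710 genes with median scaling, 1435 without the 4 double-knockout arrays, 1436 with array weights and 1439 without the second double-knockout array of each age, a setting chosen after seeing the data, beside 949. With the mean of a gene's probes, Rps9 turned to -0.0693, since its probes differ, and Apoa2 to -1.33, since its brightest probe lay at the top of the scale. Sdc1 no longer passed with the mean of its probes (adjusted p = 0.0892), while Hp (adjusted p = 0.013) and Slc47a1 (adjusted p = 0.0488) then did. Cyp8b1 (adjusted p = 0.0199), Nr5a2 (adjusted p = 0.0233), Fetub (adjusted p = 0.024) and Scd1 (adjusted p = 0.0492) passed without the 4 double-knockout arrays. Pck1 with median scaling (adjusted p = 0.0512) and, without the detection filter, Chpt1 (adjusted p = 0.0501) and Col1a1 (adjusted p = 0.0718) did not, nor did Chpt1 (adjusted p = 0.0708) and Col1a1 (adjusted p = 0.0643) in the 8 arrays of 3-week mice. The fit with the replicate number as a block called 2120 genes (1090 higher and 1030 lower) and 867 age differences and changed the call of no named gene. Same-numbered arrays did not deviate together, with a correlation of 0.008 between FXR-/- and SHP-/-. An exact permutation test of 2 against 2 arrays cannot go below p = 0.33, and signals near background limit genes detected in 1 genotype. The cause of these changes was not tested.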

Other observations

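Genes beside the deleted loci were read because both lines had been backcrossed. Of the 20 coding genes nearest to Nr1h4 in RefSeq order (10 on either side) 7 were measured, of which 3 passed the test, beside 28.9% of all genes. Chpt1, of phosphatidylcholine synthesis, was 0.37 and Tmpo, of the nuclear lamina, was 0.51, both called higher in FXR-/-. Chpt1 no longer passed without the first FXR-/- array (adjusted p = 0.193) or the second SHP-/- array (adjusted p = 0.171), nor Tmpo without the first array of either genotype (adjusted p = 0.135 and 0.068). Mybpc1, a muscle gene, was undetected in SHP-/- and at least 1.27-fold higher. Of the 20 nearest to Nr0b2, 8 were measured, and Gpn2, Sytl1 and Arid1a passed the test, beside the same 28.9%. Gpn2, a small GTPase with 1 coding gene between it and Nr0b2, read 7.94 and 8.07 on the FXR-/- arrays, against 6.65 and 6.70 on the SHP-/- arrays (1.33 ± 0.11), with means of 6.65 in the double knockout and 7.87 in wild type. It was low on the arrays of both genotypes that lack Nr0b2. Sytl1, of vesicle traffic, was undetected in SHP-/- and at least 1.45-fold higher, and Arid1a, of chromatin remodelling, was -0.88.

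Of 662 distinct measured genes next to a gene called at least 2-fold in the order of measured genes, 68 (10.3%) were called at least 2-fold themselves, beside 4.65% of all genes. Neighbours include members of 1 gene family, such as Saa1 and Saa2. These shares were computed after the values had been seen, and whether the segments differ in strain of origin was not tested.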
